A study of Mus musculus with 12 samples.

Results

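The growth hormone, STAT5 and BCL6 axis was followed in mouse liver through 10 genes: the receptor gene Ghr, the kinase gene Jak2, the transcription factor genes Stat5a and Stat5b, their targets Socs2, Cish, Igf1 and Igfals, and the transcription factor genes Bcl6 and Onecut1. The genes were chosen by name, not by a threshold, and are 10 of 18193 genes with an array probe set of their own. They have 25 probe sets. Each gene is represented by its brightest probe set, the one with the highest mean, and the others served as a check. All 10 genes passed the filter on dim values and are among the 13788 genes tested.

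Liver RNA of 12 male C57BL6J mice, an inbred laboratory strain, was hybridised at 30 weeks of age to Affymetrix 3′ expression arrays, 1 array per mouse. The 4 groups hold 3 mice each. Control chow mice drank water without antibiotic and ate chow with 13.5% of energy as fat. Penicillin chow mice ate the same chow and drank penicillin at 6.7 mg/L, a low dose. Control high-fat mice and penicillin high-fat mice differed from these in that they were moved from chow to a diet with 45% of energy as fat at 17 weeks. The labels name no engineered allele. Single arrays are named by group and replicate number. The groups allow the effect of penicillin to be read on each diet, the effect of diet with and without penicillin, and the dependence of the effects on each other.

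Growth hormone from the pituitary binds its receptor on hepatocytes, and the receptor-bound kinase JAK2 then phosphorylates STAT5, which enters the nucleus and binds DNA. The liver answers with IGF-1, the main circulating growth mediator, with the acid-labile subunit that keeps IGF-1 in the blood, and with the SOCS-family proteins that dampen the receptor. In male rodents the hormone arrives in pulses, and STAT5 with the repressor BCL6, which binds related DNA sites, is known for shaping the sex-biased expression of many liver genes.

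The sequences that STAT5 and BCL6 are known to recognise overlap, so promoter stretches of the axis genes that hold such letters are shown here first. Windows from 250 bases before to 50 bases after a transcript start came from RefSeq (build GRCm38.p6), with 15 windows for 9 of the 10 genes and none for Socs2. The STAT5-type motif searched was TTCNNNGAA, which reads the same on both strands, and the narrower BCL6-type motif was TTCCTNGAA on either strand. Every BCL6-type match is also a STAT5-type match. Capitals mark the STAT5-type motif in each line, written 5′ to 3′ on the strand of the gene.
Cish, chr9:107296659-107296678, plus strand: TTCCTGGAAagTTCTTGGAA
Igfals, chr17:24877596-24877628, plus strand: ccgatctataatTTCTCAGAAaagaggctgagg
Igfals, chr17:24878161-24878193, plus strand: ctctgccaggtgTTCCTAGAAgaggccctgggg
Bcl6, chr16:23981351-23981463, minus strand: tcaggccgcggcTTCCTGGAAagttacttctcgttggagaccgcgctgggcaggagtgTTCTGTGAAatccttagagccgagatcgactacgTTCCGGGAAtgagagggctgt
Bcl6, chr16:23988950-23988982, minus strand: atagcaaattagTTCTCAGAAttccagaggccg
The Cish stretch lies at bases 1 to 20 of the transcript. The Igfals stretches lie upstream of different starts, as do the Bcl6 stretches. The motif occurred in 5 of the 15 windows, belonging to 3 genes, and in 8.3% of all 32851 windows of the table. The window of Bcl6 with 3 matches is 1 of 11 such windows (0.0335%), and at least 2 matches, as in Cish, occurred in 0.457%. The BCL6-type motif, found once each in Cish, Igfals and Bcl6, occurred in 1.59% of all windows. A match describes letters in a window, and no binding was measured.

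The arrays carried a liver profile: the 12 hepatocyte markers were high on all 12 arrays, with Alb between 14.98 and 15.05 log2 units. Some arrays stood apart in other measures. Penicillin chow 1 had the highest acute phase score, 1.02 against at most 0.33 elsewhere, where a score is a list's mean deviation in log2 units. Penicillin high-fat 1 had the lowest clock score, -1.59. An 18S probe set was low in penicillin chow 2, penicillin chow 3 and penicillin high-fat 2, between 11.50 and 11.56 against at least 12.65. Some of the results that these arrays decide are given with and without them.

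The axis genes split by how much mice of the same group differed. Bcl6 had a within-group SD of 1.15 log2 units, and 10 of the 13788 tested genes varied more. Onecut1, with an SD of 1.04, was exceeded by 17 genes, Cish at 0.96 by 25 and Socs2 at 0.76 by 52. At the other end stood Stat5a at 0.07 and Igf1 at 0.07, with Jak2 at 0.11 and Ghr at 0.11, against a median of 0.13 over all tested genes. Stat5b at 0.22 and Igfals at 0.27 lay in between. Differences between groups therefore carried narrow errors for Ghr, Jak2, Stat5a and Igf1 and wide ones for Socs2, Cish, Bcl6 and Onecut1.

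**Figure D1:**
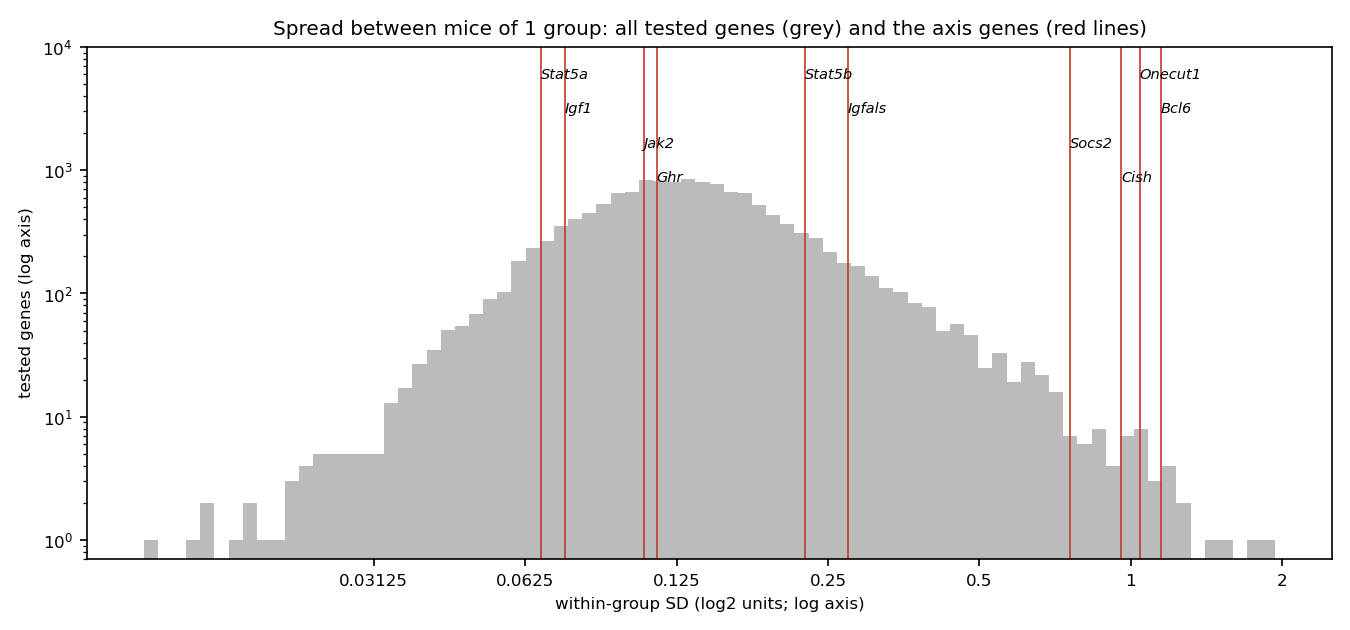
Histogram of the within-group SD (log2 units, log axis) of all 13788 tested genes (grey; number of genes on a log axis), with a red line for each axis gene. Bcl6, Onecut1, Cish and Socs2 sit in the far right tail, from 0.76 to 1.15, and Stat5a and Igf1 left of the bulk.

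No axis gene passed the test in any of 7 comparisons (limma with Benjamini-Hochberg adjustment over 13788 genes, adjusted p under 0.05). For penicillin on chow, 0 of 10 genes were called, where 0.00725% of all tested genes were, and 0 had an unadjusted p under 0.05, against 7.62% of all. For penicillin on high-fat diet, 0 were called (0.341% of all genes), while Igf1 and Igfals were the 2 with an unadjusted p under 0.05 (10.1% of all). For diet in control mice, 0 were called (0.899% of all), and Socs2 was the 1 gene with an unadjusted p under 0.05 (15.1% of all). For diet in penicillin mice, 0 were called (8.32% of all), and Igf1 was the 1 gene with an unadjusted p under 0.05 (24.5% of all).

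The comparisons over all 12 arrays gave the same count of calls. For the interaction of penicillin with diet, 0 axis genes were called (0.0435% of all), and Igf1 was the 1 with an unadjusted p under 0.05 (6.11% of all). Penicillin averaged over diets gave 0 calls (0.145% of all) and unadjusted p under 0.05 for Igf1 and Igfals (11.9% of all). Diet averaged over treatments gave 0 calls (14.5% of all) and unadjusted p under 0.05 for Socs2 and Bcl6 (30.1% of all). Groups of 3 arrays did not overlap for 0 axis genes under penicillin on chow (11.8% of all), 2 under penicillin on high-fat diet (17.3%), 0 under diet in control mice (22.8%) and 1 under diet in penicillin mice (28.0%). The median difference of the axis genes was 0.01 for penicillin on chow, -0.13 for penicillin on high-fat diet, 0.10 for diet in control mice and 0.01 for diet in penicillin mice. The same median over all genes lay between -0.01 and 0.00.

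**Figure D2:**
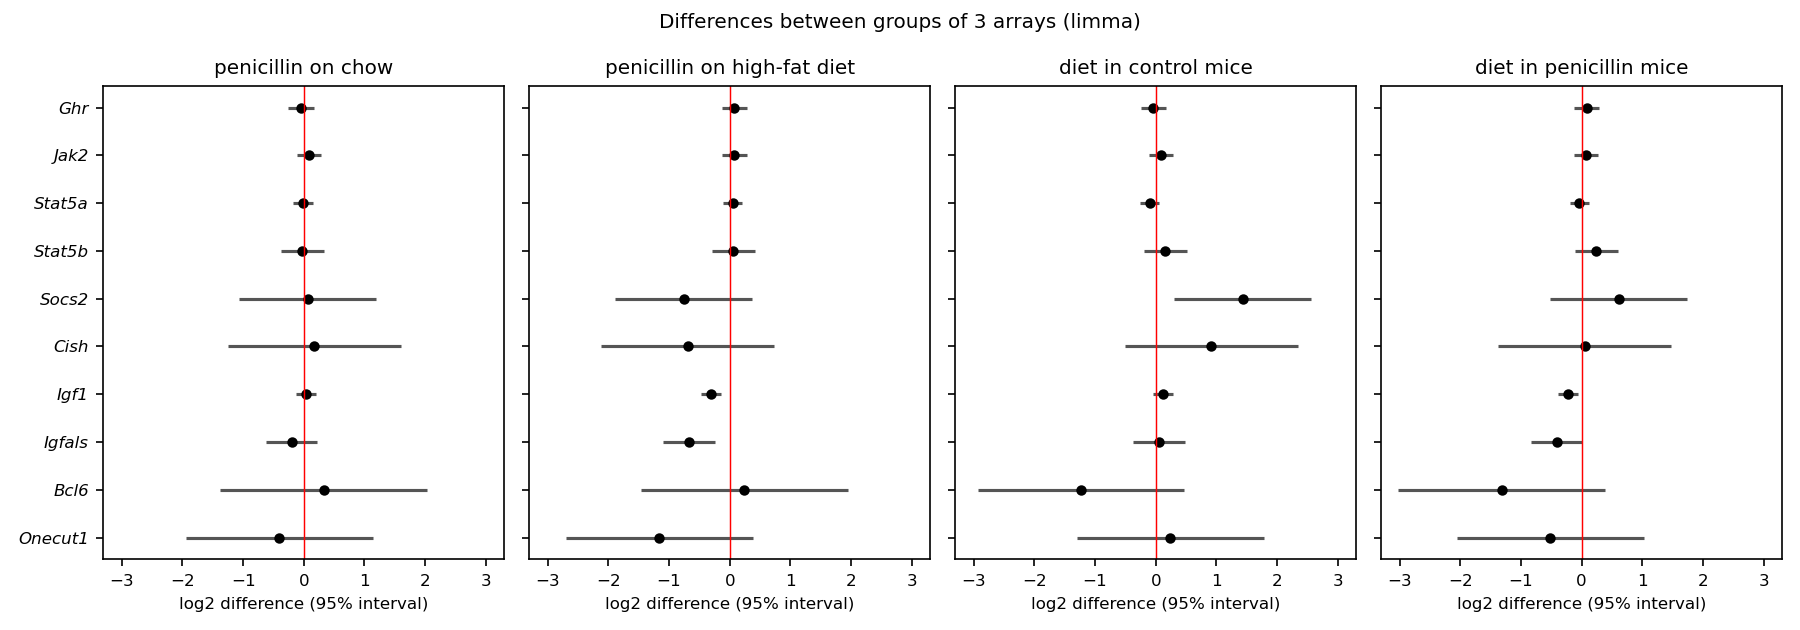
Log2 differences of the 10 axis genes (points) with 95% intervals (lines) from limma, for penicillin against control on each diet and for high-fat diet against chow in each treatment, 3 arrays per group. Intervals of Ghr, Jak2, Stat5a and Igf1 are short, those of Socs2, Cish, Bcl6 and Onecut1 span several units, and Igf1 and Igfals lie left of 0 for penicillin on high-fat diet.

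The receptor gene Ghr was at a nearly constant level in the 4 groups. Its log2 values were 13.09, 12.95 and 12.99 in control chow, 12.75, 13.08 and 13.07 in penicillin chow, 12.94, 13.08 and 12.90 in control high-fat, and 13.02, 13.10 and 13.04 in penicillin high-fat. The lowest array was penicillin chow 1, and all groups overlapped. Penicillin minus control was -0.04 on chow (95% interval -0.25 to 0.16) and 0.08 on high-fat diet (-0.13 to 0.28). High-fat diet minus chow was -0.04 in control mice (-0.25 to 0.17) and 0.08 in penicillin mice (-0.13 to 0.29). A dimmer probe set of Ghr, with a mean of 8.49, differed by -0.35 ± 0.12 (SE) for penicillin on chow without passing the test (limma, adjusted p = 0.590).

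Jak2, whose product is the kinase on the receptor, lay between 7.86 and 8.23 on the 12 arrays, and its groups overlapped in every comparison. Penicillin minus control was 0.08 on chow (95% interval -0.12 to 0.29) and 0.08 on high-fat diet (-0.12 to 0.28). High-fat diet minus chow was 0.08 in control mice (-0.12 to 0.28) and 0.08 in penicillin mice (-0.13 to 0.28). On the other Jak2 probe set the penicillin arrays all lay above the control arrays, at 6.92 to 6.95 against 6.75 to 6.89 on chow and at 6.94 to 7.13 against 6.80 to 6.89 on high-fat diet. That difference averaged 0.17 ± 0.05 (SE) over the diets and did not pass (limma, adjusted p = 0.215).

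Stat5a and Stat5b encode the closely related STAT5 proteins that carry the signal to the nucleus. Stat5a lay between 7.24 and 7.47 on the 12 arrays, and its largest difference between groups was -0.10 for diet in control mice (95% interval -0.26 to 0.06), with -0.04 in penicillin mice and penicillin differences of -0.01 on chow and 0.05 on high-fat diet. Stat5b lay between 7.77 and 8.54, with penicillin high-fat 1 the highest array and control high-fat 1 next at 8.33. Diet differed by 0.16 in control mice (-0.19 to 0.51) and by 0.24 in penicillin mice (-0.11 to 0.60) for Stat5b, penicillin by -0.02 on chow and 0.06 on high-fat diet, and the groups overlapped. The other probe sets of Stat5a and Stat5b tracked those used poorly, with r of 0.30 and 0.08 over 12 arrays.

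**Figure D3:**
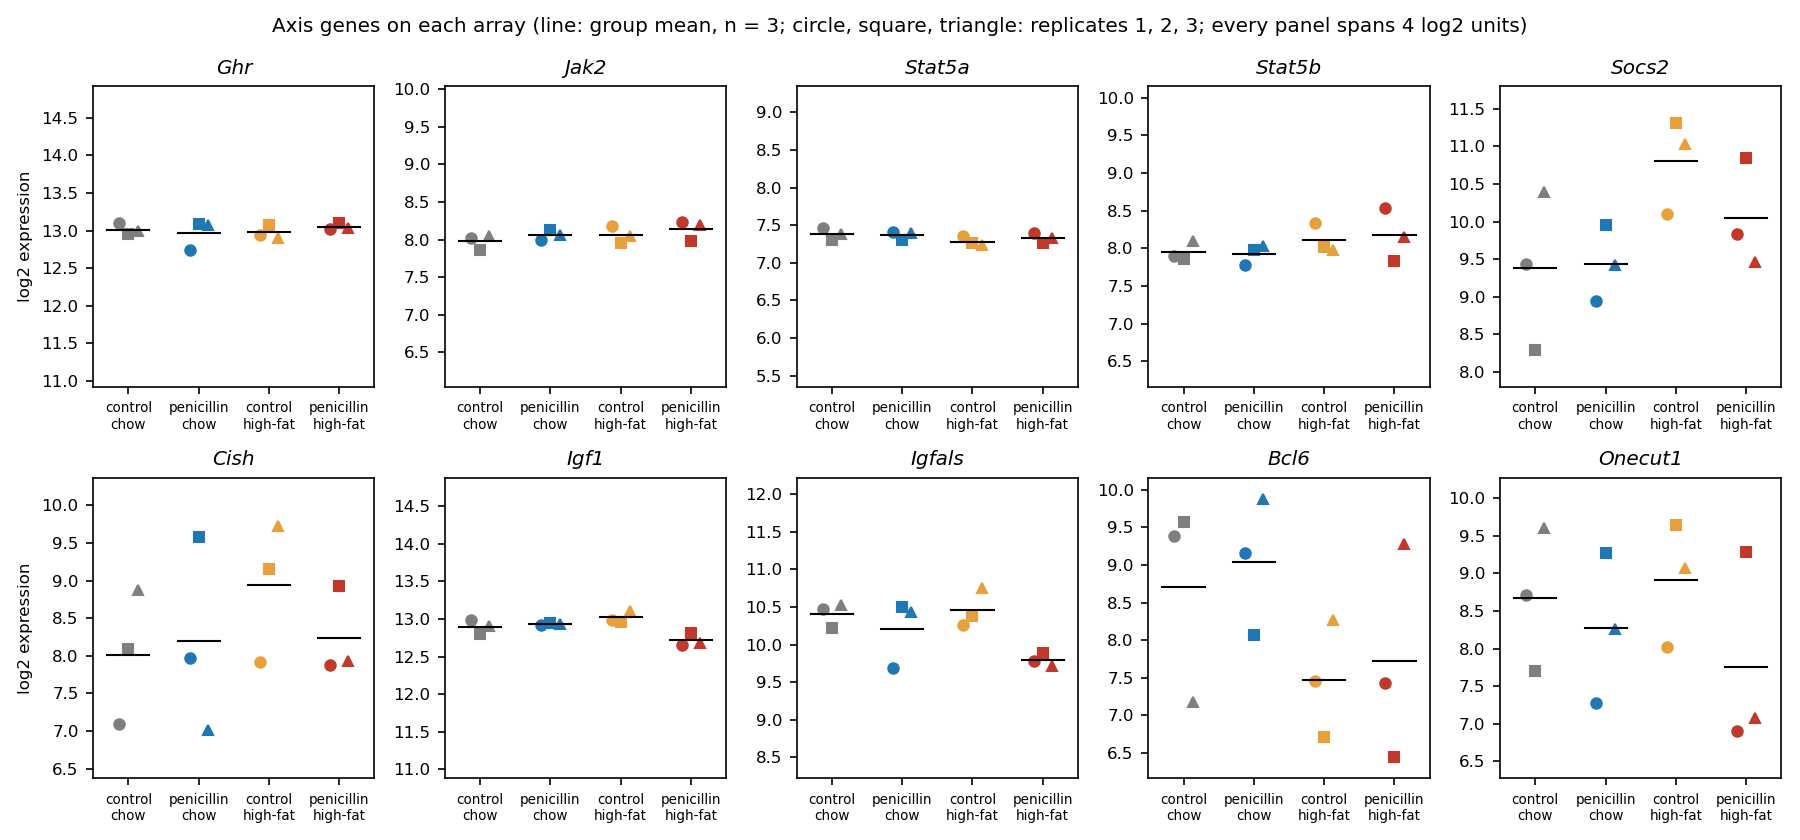
Log2 expression of each axis gene on each of the 12 arrays, by group; the line is the group mean (n = 3), symbols mark the replicate number, and every panel spans 4 log2 units. Ghr, Jak2, Stat5a and Igf1 are nearly flat, whereas Socs2, Cish, Bcl6 and Onecut1 scatter over 2.70 to 3.43 units.

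Socs2, a STAT5 target whose product limits growth hormone signalling, tended to the highest values on high-fat diet. It measured 9.44, 8.30 and 10.40 in control chow, 8.94, 9.96 and 9.43 in penicillin chow, 10.10, 11.31 and 11.03 in control high-fat, and 9.84, 10.85 and 9.47 in penicillin high-fat. Control chow 3 was as high as high-fat arrays, so the diet groups overlapped. High-fat diet minus chow was 1.43 ± 0.51 (SE) in control mice, a 2.70-fold ratio (limma, adjusted p = 0.215), and 0.61 ± 0.51 in penicillin mice (adjusted p = 0.506). Averaged over treatments it was 1.02 ± 0.36 (adjusted p = 0.0838). Control chow mice moved these values: without control chow 3 the averaged difference was 1.28 and passed (adjusted p = 0.0309), and without control chow 2 it was 0.75 (adjusted p = 0.158). Diet in control mice was 0.89 without control chow 2 (adjusted p = 0.480) and 1.94 without control chow 3 (adjusted p = 0.113). Penicillin minus control was 0.06 on chow (95% interval -1.06 to 1.19) and -0.76 on high-fat diet (-1.89 to 0.36).

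A dim probe set of Socs2, with a mean of 5.16, passed the test where the bright one did not. Its control high-fat arrays lay at 5.56 to 5.77 and its control chow arrays at 4.77 to 5.01, a difference of 0.76 ± 0.11 (SE; limma, adjusted p = 0.0101). In penicillin mice diet differed by 0.11 ± 0.11 (adjusted p = 0.583), and the difference averaged over treatments was 0.43 ± 0.08 (adjusted p = 0.00394). The interaction of diet and penicillin was -0.65 and did not pass (adjusted p = 0.274). Penicillin minus control on high-fat diet was -0.51 ± 0.11 on this probe set, with groups that did not overlap, and did not pass (adjusted p = 0.0771). These were the 2 calls among 105 differences on the 15 further probe sets of the axis genes. The second bright probe set of Socs2, which followed the one used with r = 0.99, gave 1.41 ± 0.56 for diet in control mice (adjusted p = 0.264). On the probe sets with means of 5.77 and 4.95 control high-fat also lay wholly above control chow. The differences were 0.69 ± 0.20 and 1.15 ± 0.35 (limma, adjusted p = 0.123 and 0.145), with -0.13 and 0.03 in penicillin mice. On the dimmest, with a mean of 3.31, diet in control mice was 0.09 ± 0.11 and the groups overlapped.

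Cell-type markers also moved with diet beside Socs2. Summed levels here and below cover every listed marker found on the arrays, also those below the filter. The 12 Kupffer cell and macrophage markers, all 12 tested, had a summed level of 13.41 to 13.55 log2 units in control chow and 13.84 to 13.96 in control high-fat, and the sinusoidal endothelial markers, 10 of 11 tested, went from 11.97 to 12.07 against 12.26 to 12.38. Adipocyte markers, of which 2 of 6 were tested and Adipoq and Lep lay below the filter, were at 8.61 to 8.995 against 9.21 to 9.89. Pancreatic acinar markers, 5 of 8 tested with Cel below the filter, were at 10.44 to 10.71 against 10.88 to 11.05, and cholangiocyte markers, 3 of 7 tested with Krt7 and Cftr below the filter, were lower on high-fat diet, at 8.09 to 8.13 against 7.78 to 7.93. Their part in the Socs2 difference was not tested. In bulk tissue, fewer cells of a type and less RNA per cell cannot be told apart.

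Cish, the other feedback gene, encodes a protein that competes for STAT5 docking on the receptor. It measured 7.09, 8.09 and 8.87 in control chow, 7.98, 9.58 and 7.02 in penicillin chow, 7.92, 9.16 and 9.72 in control high-fat, and 7.87, 8.92 and 7.93 in penicillin high-fat. Within penicillin chow alone it ran from 7.02 to 9.58, and the groups overlapped in every comparison. Diet in control mice differed by 0.92 (95% interval -0.50 to 2.34), and diet in penicillin mice by 0.05 (-1.37 to 1.47). Penicillin differed by 0.17 on chow (-1.25 to 1.60) and by -0.69 on high-fat diet (-2.12 to 0.73).

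Igf1, which encodes the circulating growth mediator, was lower in penicillin high-fat than in control high-fat livers on every array, by a small amount. Its values were 12.99, 12.80 and 12.90 in control chow, 12.92, 12.95 and 12.94 in penicillin chow, 12.99, 12.96 and 13.11 in control high-fat, and 12.65, 12.81 and 12.68 in penicillin high-fat. On this brightest probe set the penicillin high-fat group lay below both other groups it was compared with, and the remaining groups overlapped. Penicillin minus control on high-fat diet was -0.31 ± 0.08 (SE), a 1.24-fold ratio, and missed the threshold (limma, adjusted p = 0.140). High-fat diet minus chow in penicillin mice was -0.22 ± 0.08 (adjusted p = 0.1003). It was 0.13 ± 0.08 in control mice, and penicillin minus control on chow was 0.04 ± 0.08.

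The other probe sets of Igf1 gave the same sign for penicillin on high-fat diet, at -0.37 ± 0.13 (SE), -0.41 ± 0.12 and -0.48 ± 0.13 (limma, adjusted p = 0.343, 0.222 and 0.174). On the first of these the penicillin high-fat and control high-fat groups overlapped. For penicillin on chow the 3 lay at -0.01, -0.09 and 0.04. High-fat diet minus chow in penicillin mice was -0.17 ± 0.13, -0.07 ± 0.12 and -0.34 ± 0.13 on them, with overlapping groups on the first and second. The interaction for the brightest probe set was -0.34 ± 0.11 and did not pass (adjusted p = 0.576), so a difference between the diets in the effect of penicillin on Igf1 was not established by the test.

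Igfals encodes the acid-labile subunit, the partner that holds IGF-1 in a large serum complex. It measured 10.47, 10.22 and 10.53 in control chow, 9.69, 10.50 and 10.43 in penicillin chow, 10.26, 10.38 and 10.75 in control high-fat, and 9.78, 9.89 and 9.71 in penicillin high-fat. The 3 penicillin high-fat arrays and penicillin chow 1 were the low ones, and on high-fat diet the groups did not overlap. Penicillin minus control on high-fat diet was -0.67 ± 0.19 (SE), a 1.59-fold ratio that missed the threshold (limma, adjusted p = 0.226). On chow it was -0.20 ± 0.19 (adjusted p = 0.855), and diet in control mice differed by 0.06 ± 0.19.

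Calls for Igfals varied with the fit, both with and without penicillin chow 1. Penicillin on high-fat diet does not compare that array, which enters through the shared estimate of spread: without it the difference was the same -0.67 and passed (limma, adjusted p = 0.0456), and without both it and penicillin high-fat 1 the difference was -0.66 and did not (adjusted p = 0.159). Without penicillin chow 1, high-fat diet minus chow in penicillin mice went from -0.41 (adjusted p = 0.214) to -0.67 (adjusted p = 0.0149). Diet averaged over treatments then stood at -0.31 (adjusted p = 0.0493), from -0.18. Penicillin averaged over diets weakened without that array, from -0.44 to -0.31. Igfals also passed in fits that kept penicillin chow 1. With the 18S signal as a covariate, penicillin on high-fat diet differed by -0.79 (limma, adjusted p = 0.0339). All arrays with low 18S were penicillin arrays, so that covariate is tied to treatment. With array weights, diet in penicillin mice differed by -0.58 (limma, adjusted p = 0.0309).

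Marker levels beside the Igf1 and Igfals differences were as follows. The 12 hepatocyte markers, all 12 tested, summed to 17.81 to 17.82 log2 units in control high-fat and 17.75 to 17.79 in penicillin high-fat. The pancreatic acinar markers, 6 of 8 on the arrays and 5 tested, summed to 10.88 to 11.05 against 9.73 to 10.11, with Cel, below the filter, in the sum. Their part in the 2 differences was not tested.

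Bcl6, the gene of the repressor, had the widest scatter of the axis. It measured 9.38, 9.57 and 7.18 in control chow, 9.16, 8.07 and 9.88 in penicillin chow, 7.46, 6.71 and 8.26 in control high-fat, and 7.44, 6.45 and 9.27 in penicillin high-fat. Chow arrays were mostly higher, but control chow 3 was as low as high-fat arrays and penicillin high-fat 3 as high as chow arrays. High-fat diet minus chow, averaged over treatments, was -1.28 ± 0.55 (SE), a 2.42-fold ratio, and did not pass (limma, adjusted p = 0.143). It was -1.23 in control mice (95% interval -2.94 to 0.47) and -1.32 in penicillin mice (-3.02 to 0.38). Penicillin differed by 0.33 on chow (95% interval -1.37 to 2.03) and by 0.24 on high-fat diet (-1.46 to 1.94). The other Bcl6 probe set followed with r = 0.94 over 12 arrays, but its diet differences were smaller. They were -0.60 in control mice, -0.35 in penicillin mice and -0.47 ± 0.27 averaged over treatments (limma, unadjusted p = 0.109, adjusted p = 0.269).

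Onecut1 encodes HNF6, a hepatocyte transcription factor known to respond to growth hormone. It measured 8.71, 7.70 and 9.60 in control chow, 7.27, 9.27 and 8.27 in penicillin chow, 8.02, 9.65 and 9.07 in control high-fat, and 6.90, 9.28 and 7.08 in penicillin high-fat. The lowest 2 arrays were penicillin high-fat 1 and 3, yet penicillin high-fat 2 was among the highest of all. Penicillin minus control was -1.16 on high-fat diet (95% interval -2.70 to 0.39) and -0.40 on chow (-1.95 to 1.14). High-fat diet minus chow was 0.24 in control mice (-1.30 to 1.79) and -0.52 in penicillin mice (-2.06 to 1.03). With the 18S signal as a covariate, penicillin averaged over diets went from -0.78 (limma, adjusted p = 0.571) to -1.73 (adjusted p = 0.0370). The arrays with low 18S were all penicillin arrays, so this covariate is tied to treatment and the fit cannot fully separate them.

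The 4 scattered genes were compared mouse by mouse within groups, after their values had been seen. In each of the 4 groups the mouse with the lowest Bcl6 had the highest Socs2 and the highest Onecut1. This mouse was replicate 3 in control chow and replicate 2 in each of the other groups. Cish was highest in the same mouse in 3 of the groups, and in control high-fat 3 in the remaining group. Within groups, Socs2 and Onecut1 were ordered the same way in 11 of 12 pairs of arrays, and Socs2 and Bcl6 the opposite way in 10 of 12. Of the other pairs, Cish was ordered like Onecut1 in 9 of 12 and like Socs2 in 8 of 12, and opposite to Bcl6 in 8 of 12, and Onecut1 was ordered opposite to Bcl6 in 9 of 12. None of these relations passed the adjustment over deviations from group means. Among these mice, penicillin chow 2 and penicillin high-fat 2 had a low 18S signal and the others did not, while penicillin chow 3, also low in 18S, had the highest Bcl6 of all.

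**Figure D4:**
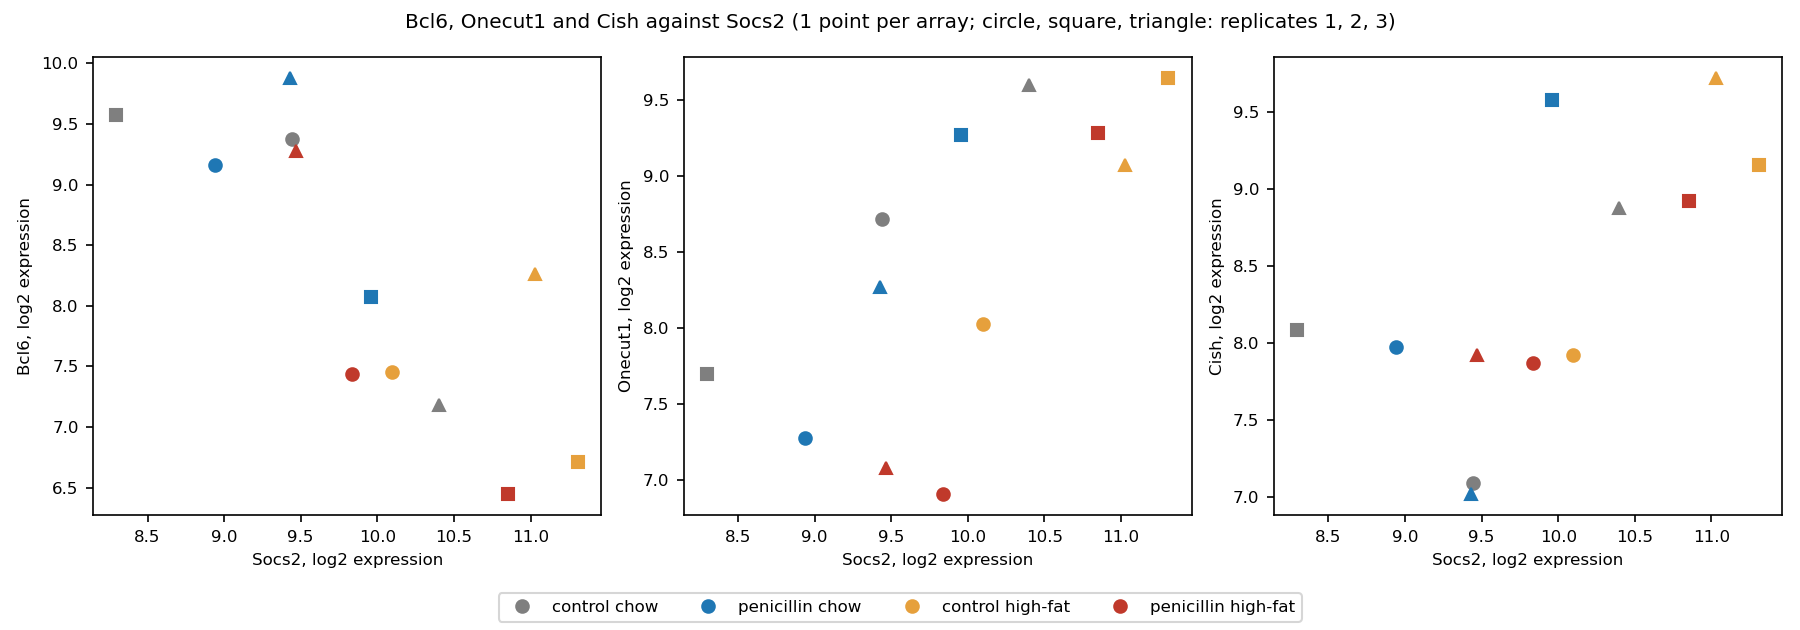
Bcl6, Onecut1 and Cish (vertical axes) against Socs2 (horizontal axes), log2 expression, 1 point per array, coloured by group with symbols for replicate number. Arrays with high Socs2 have low Bcl6 (r = -0.80) and mostly high Onecut1 and Cish (r = 0.69 and 0.65).

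Relations were computed for all 45 pairs of axis genes over the 12 arrays, a choice made after the values had been seen. For Socs2 and Bcl6, Pearson's r was -0.80 and Spearman's rho -0.80 (permutation p = 0.00212 and 0.00282, adjusted p = 0.0305 and 0.0423). Without control chow 2 and control high-fat 2, the arrays farthest from the median of Socs2, r was -0.73. It was -0.78 on chow and -0.61 on high-fat diet, and over deviations from group means it was -0.73 (exact permutation p = 0.0417, adjusted p = 0.255). Among all tested genes, Socs2 had rank 13 from the most negative r with Bcl6 (0.0943% of genes at least as negative), a description across genes that are not independent.

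Socs2 and Onecut1 had the closest relation within groups. Over deviations from group means r was 0.93 (exact permutation p = 0.00154, adjusted p = 0.0694), with 0.90 on chow and 0.96 on high-fat diet. Over the 12 arrays r was 0.69 and rho 0.69 (permutation p = 0.0137 and 0.0162, adjusted p = 0.103 and 0.182), and r was 0.65 without control chow 2 and control high-fat 2. Socs2 and Cish had r = 0.65 and rho = 0.62 (permutation p = 0.0215 and 0.0350, adjusted p = 0.138 and 0.197).

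Over the 12 arrays, 4 of the 45 pairs passed the adjustment for Pearson's r, and 0 did over deviations from group means. Besides Socs2 with Bcl6 these were Stat5a with Cish, Jak2 with Stat5b, and Igf1 with Igfals. For Stat5a with Cish, r was -0.80 and rho -0.83 (permutation p = 0.00249 and 0.00155, adjusted p = 0.0305 and 0.0423), and r was -0.65 without control chow 1 and control high-fat 3. For Jak2 with Stat5b, r was 0.79 and rho 0.80 (permutation p = 0.00170 and 0.00249, adjusted p = 0.0305 and 0.0423), and r was 0.72 without control chow 2 and penicillin high-fat 1. The relations of Stat5a with Cish and of Jak2 with Stat5b were weaker on the other probe sets of Stat5a and Stat5b. Those followed the probe sets used with r of only 0.30 and 0.08. For Igf1 with Igfals, r was 0.78 and rho 0.64 (permutation p = 0.00271 and 0.0304, adjusted p = 0.0305 and 0.196), and r was 0.61 without penicillin high-fat 1 and 3. Leaving out 1 array at a time left between 0 and 4 pairs past the threshold.

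Array measures were set beside the 4 scattered genes in 16 relations, also chosen after the values had been seen, and 0 passed the adjustment over 12 arrays or within groups. The closest was Onecut1 with the 18S probe set, with r = -0.86 over deviations from group means (exact permutation p = 0.00694, adjusted p = 0.0803). Socs2 with the 18S probe set had r = -0.69 (exact permutation p = 0.0100, adjusted p = 0.0803). Bcl6 and the clock score had r = 0.47 and rho = 0.60 over 12 arrays (permutation p = 0.114 and 0.0419, adjusted p = 0.545 and 0.276), and r = 0.43 without penicillin high-fat 1 and control high-fat 1.

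Hsd3b5, a male-specific steroid dehydrogenase gene of mouse liver known to depend on growth hormone pulses, was set beside the axis on single arrays. It measured 13.01, 12.68 and 12.96 in control chow, 11.70, 12.88 and 12.87 in penicillin chow, 12.33, 12.63 and 12.22 in control high-fat, and 7.15, 9.58 and 8.96 in penicillin high-fat. On the 3 arrays where Hsd3b5 was low, Igf1 lay at 12.65 to 12.81 and Igfals at 9.71 to 9.89, below all control high-fat arrays. Ghr lay at 13.02 to 13.10 and Stat5b at 7.83 to 8.54 on the same arrays, within or above the range of the others. The Hsd3b5 values on high-fat diet fell into separate clusters by treatment with a gap of 2.65 units, so no correlation is given over those 6 arrays.

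On chow, 10 relations with Hsd3b5 were computed and 0 passed the adjustment. For Igfals, r was 0.98 and rho 0.83 over 6 arrays (exact permutation p = 0.00972 and 0.0583, adjusted p = 0.0764 and 0.194), and r was 0.32 without penicillin chow 1 and control chow 2. For Ghr, r was 0.94 and rho 0.83 (exact permutation p = 0.0250 and 0.0583, adjusted p = 0.0833 and 0.194), and r was -0.12 without those arrays. For Onecut1, r was 0.76 and rho 0.83 (exact permutation p = 0.0153 and 0.0583, adjusted p = 0.0764 and 0.194), and r was 0.23 without them. These relations rest on penicillin chow 1 and control chow 2, and penicillin chow 1 was also the array with the highest acute phase score. Over deviations from group means of all 12 arrays, Ghr had r = 0.61 with Hsd3b5 (exact permutation p = 0.000772, the smallest these permutations can give, adjusted p = 0.00772). Over the plain values of the 12 arrays r was -0.07. The relation over deviations was not computed without penicillin chow 1 or penicillin high-fat 1, the arrays with the lowest Hsd3b5 of their groups. Nor was it computed on the other Ghr probe sets, which followed the one used with r of 0.41 and 0.60.

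**Figure D5:**
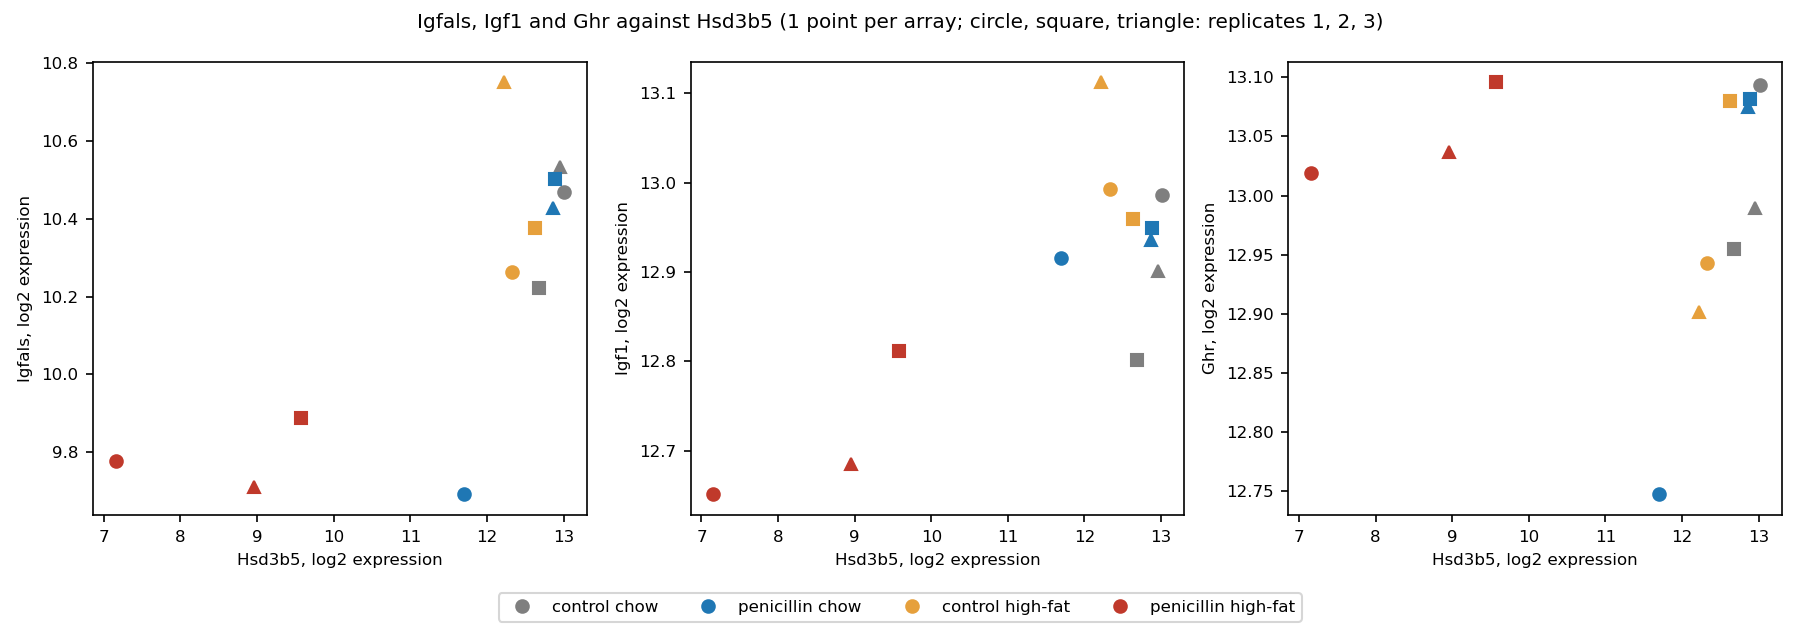
Igfals, Igf1 and Ghr (vertical axes) against Hsd3b5 (horizontal axes), log2 expression, 1 point per array, coloured by group with symbols for replicate number; vertical axes differ in span. The penicillin high-fat arrays lie at Hsd3b5 between 7.15 and 9.58, with low Igfals and Igf1 but not low Ghr, and penicillin chow 1 is low in Igfals and Ghr.

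Around the axis, genes of the circulating IGF system changed with diet where Igf1 did not pass. Of 12 tested genes, 2 rose and 1 fell with high-fat diet in penicillin mice, where 8.32% of all tested genes were called, with a list median of -0.12 against -0.01 over all genes. Igfbp3, the main IGF carrier in serum, rose by 1.02 ± 0.14 (SE; limma, adjusted p = 0.00176), Igfbp7 rose by 0.71 ± 0.10 (adjusted p = 0.00194), and Igfbp2, another IGF-binding protein gene, fell by 0.65 ± 0.11 (adjusted p = 0.00622). The same 3 passed for diet averaged over treatments, where 14.5% of all genes were called. Some cell-type markers were higher on high-fat diet in the same penicillin mice and others lower, with groups that did not overlap. The Kupffer cell and macrophage markers (12 of 12 tested) summed to 12.75 to 13.30 log2 units on chow and 13.38 to 13.99 on high-fat diet. The sinusoidal endothelial markers (10 of 11) summed to 11.66 to 11.99 and 12.14 to 12.41. The stellate cell and fibroblast markers (11 of 11) summed to 12.36 to 12.65 and 12.92 to 13.29. Adipocyte markers (4 of 6 on the arrays, 2 tested) were also higher, at 8.50 to 9.06 and 9.66 to 9.85. Hepatocyte markers (12 of 12) were lower, at 17.80 to 17.81 on chow and 17.75 to 17.79 on high-fat diet. Pancreatic acinar markers (6 of 8 on the arrays, 5 tested) were lower too, at 10.26 to 10.50 and 9.73 to 10.11. Their part in the Igfbp differences was not tested. In control mice 0 passed and 2 had an unadjusted p under 0.05 (15.1% of all genes), with Igfbp3 at 0.62 ± 0.14 (limma, adjusted p = 0.0619). For penicillin, 0 of 12 passed on either diet. An unadjusted p under 0.05 was found for 3 on chow (7.62% of all genes) and 1 on high-fat diet (10.1% of all). Igfbp2 stood at -0.55 ± 0.11 for penicillin on high-fat diet (limma, adjusted p = 0.0751).

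Other signalling genes near the receptor were counted next. Of 27 tested JAK, STAT, SOCS, phosphatase and adaptor genes, 1 rose and 1 fell with high-fat diet in penicillin mice: Sirpa, a membrane protein that recruits phosphatases, by 0.52 ± 0.12 (SE; limma, adjusted p = 0.0226), and Stat2, of interferon signalling, by -0.36 ± 0.10 (adjusted p = 0.0445). The share of all genes called there was 8.32%, and the list median was -0.07. For penicillin on high-fat diet 0 of 27 passed and 3 had an unadjusted p under 0.05 (10.1% of all genes), with Irs2, an insulin receptor substrate, at -0.60 ± 0.15 (adjusted p = 0.132) and a list median of -0.04. Of 11 tested receptors of the same cytokine receptor class, Lifr fell with penicillin on high-fat diet by 1.04 ± 0.12 (adjusted p = 0.00272) and with high-fat diet by 0.78 ± 0.12 in control mice (adjusted p = 0.0127) and by 2.00 ± 0.12 in penicillin mice (adjusted p = 4.10e-06). The list medians were -0.10, 0.10 and 0.07 in these comparisons, and no other receptor passed in them. The shares of all genes called there were 0.341%, 0.899% and 8.32%.

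Of 20 tested hepatic transcription factor genes, 0 passed for penicillin, with an unadjusted p under 0.05 for 4 on chow (7.62% of all genes) and 1 on high-fat diet (10.1% of all). With high-fat diet, 1 rose in control mice (0.899% of all called, list median 0.06), and 2 rose and 1 fell in penicillin mice (8.32% of all called, list median 0.01). Zbtb16, a zinc finger repressor of the same protein family as BCL6, rose by 1.96 ± 0.32 (SE) in control mice (limma, adjusted p = 0.0223) and by 2.19 ± 0.32 in penicillin mice (adjusted p = 0.00252), where Bcl6 stood at -1.23 and -1.32 without passing. Foxa3 fell by 0.83 ± 0.14 in penicillin mice (adjusted p = 0.00485), and Tox rose by 0.56 ± 0.15 (adjusted p = 0.0415).

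Sex-biased genes, many of them known to respond to the axis, were counted in the same comparisons. Whether their changes here came through the axis was not tested. The shares of all genes called were 0.341% for penicillin on high-fat diet, 0.00725% for penicillin on chow, 0.899% for diet in control mice and 8.32% for diet in penicillin mice. For penicillin on chow, 7.62% of all genes had an unadjusted p under 0.05. Of 22 tested male-biased genes, 4 fell with penicillin on high-fat diet (Hsd3b5, Cyp7b1, Slco1a1 and C8b), 0 passed on chow where 4 had an unadjusted p under 0.05, 1 fell with diet in control mice and 11 fell with diet in penicillin mice, those with the smallest p being Cyp7b1, C8b, Ugt2b38, Hsd3b5, C6 and Susd4. The list medians were -0.35, -0.13, -0.40 and -0.64 in that order. Of 18 tested female-biased genes, 4 rose with penicillin on high-fat diet (Slc22a27, Hao2, Slc22a29 and Vldlr), 0 passed on chow where 3 had an unadjusted p under 0.05, 8 rose and 1 fell with diet in control mice, and 9 rose and 1 fell in penicillin mice, those with the smallest p being Hao2, Slc22a27, Slc22a29, Cyp2b9 and Vldlr, which rose, and Cyp2b10, which fell. Their medians were 0.21, 0.05, 1.18 and 1.58. Comparisons of penicillin and of diet share groups, so these counts are not independent of each other. The lists were chosen with earlier results of these data known, so counts beside shares are a description and not a test.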

How the data were processed

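The values are log2 expression, deposited by the authors as a table of 45101 probe sets by 12 arrays. Per the submitters' processing notes they come from RMA in affy, of versions not given in the sources used here. The method equalises the arrays, so differences are relative to the bulk of genes. Per the labels the replicates are biological. Genes were named from GEO's platform annotation: 34945 probe sets had 1 symbol, 932 several and 9160 none, and 64 controls were left out. Gene IDs of 34741 were found in a GRCm38.p6 table. Genes above the 40th percentile (log2 5.00) on at least 3 arrays were tested with limma 3.58.1 in R 4.3.3 (4 group means, 8 residual degrees of freedom, eBayes, Benjamini-Hochberg). Array number limits the precision, and no read depth exists.

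Members and lists were chosen with earlier results of these data known. The rule for named genes took all 10 genes and, per list and comparison, called genes up to 6 by smallest p, otherwise up to 3; for the lists the text gives part of these. Relations across arrays used Python 3.11.15 and NumPy 2.4.6, with two-sided permutation tests (100000 over 12 arrays, all 720 over 6, all 1296 within groups). The limma script was tested on simulated data. Scan batch, litter and hour of collection were not used here. Same-numbered arrays did not deviate together: 3 of 18 pairs correlated above 0.1 (r from -0.23 to 0.172). Alternatives covered filter, probe set, normalization, weights, covariates and left-out arrays.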

Additional observations from a re-analysis of the deposited data

Results flagged for a closer look

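The effect of penicillin differed between the diets for 3 genes of the surrounding lists, by an interaction test past the threshold (limma, Benjamini-Hochberg). Of all 13788 tested genes 6 passed (0.0435%), and the lists were chosen with earlier results of these data known. The interaction was 2.06 for Hao2 (adjusted p = 0.0114), a female-biased oxidase gene, 1.66 for Slc22a27 (adjusted p = 0.0418), a female-biased transporter gene, and -1.22 for Lifr (adjusted p = 0.0323), the receptor gene for leukaemia inhibitory factor. For Foxa3 the penicillin arrays lay above the controls on chow and below them on high-fat diet, but the interaction of -0.74 did not pass (adjusted p = 0.413). None of the 10 axis genes showed such a difference, and groups of 3 are too small for the check on single outlying arrays.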

How the results depend on the processing

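The count of 0 axis genes past the threshold held in every alternative for penicillin on chow, diet in control mice and the interaction, apart from a dim Socs2 probe set that passed for diet in control mice. For penicillin on high-fat diet it became 1 with the 18S covariate, and between 0 and 1 with 1 array left out. For diet in penicillin mice it became 1 with trend and robust variance (Igf1, adjusted p = 0.0478), 1 with array weights (Igfals) and 1 without penicillin chow 1 and penicillin high-fat 1 (Igfals), and lay between 0 and 1 with 1 array left out. For penicillin averaged over diets it became 2 with the 18S covariate (Igfals and Onecut1), which is tied to treatment because all low-18S arrays are penicillin arrays. Without the 3 low-18S arrays, which leaves penicillin chow 1 alone in its group, Igfals stood at -0.72. For diet averaged over treatments it became 1 with the mean of all probe sets, with array weights, with the 18S covariate and at an adjusted p under 0.10 (Socs2 each time), and lay between 0 and 1 with 1 array left out. The causes were not tested.

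The fit with a replicate block called 0 axis genes in every comparison, as did the fit without it, and the replicate numbers do not pair the arrays: 2 of 12 arrays correlated best with their own number. The 9 differences with an unadjusted p under 0.05 kept their sign in 26 fits, and 34 of the other 61 changed sign in at least 1. The count of pairs of axis genes past the threshold went from 4 to 0 over deviations from group means, and lay between 0 and 4 with 1 array left out. Beside Hsd3b5, 1 gene passed over deviations from group means (Ghr), and r of Ghr on chow reversed to -0.12 without the 2 farthest arrays. Other normalizations moved the median of all genes by at most 0.02.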

Other observations

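Of 14 tested genes of the fasting response, 2 rose with high-fat diet in control mice (Txnip and Lpin1; 0.899% of all genes called) and 5 in penicillin mice (Txnip, Fgf21, Pdk4, Ppargc1a and Lpin1; 8.32% of all called), with medians of 0.69 and 0.53. Fgf21, a hepatic hormone gene known to interact with growth hormone signalling, rose by 2.53 ± 0.39 (SE) in penicillin mice (limma, adjusted p = 0.00352), and Pdk4, which encodes a kinase that spares glucose, rose by 2.52 ± 0.41 (adjusted p = 0.00443). For penicillin 0 of 14 passed by limma, with an unadjusted p under 0.05 for 2 on chow (7.62% of all genes) and 3 on high-fat diet (10.1% of all).

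Of 25 tested acute phase genes, 0 passed for penicillin on either diet or for diet in control mice. An unadjusted p under 0.05 was found for 1 with penicillin on chow (7.62% of all genes) and 3 with penicillin on high-fat diet (10.1% of all). For diet in control mice it was found for 5 (15.1% of all). Hamp, the hepcidin gene, was the 1 gene called for diet in penicillin mice, where 8.32% of all genes were called. It fell by 0.87 ± 0.18 (SE; limma, adjusted p = 0.0146). Of 11 clock genes of the Per and Dbp phase and 5 of the Bmal1 phase, 0 passed in the comparisons between 2 groups. Among these, an unadjusted p under 0.05 was most frequent for diet in penicillin mice, with 4 and 2 genes, where 24.5% of all genes had one. Nfil3 rose by 0.92 ± 0.27 with diet averaged over treatments (limma, adjusted p = 0.0427), where 14.5% of all genes were called.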
